A study of Homo sapiens with 6 samples.

Results

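The 10 genes described here are the TGF-beta ligands TGFB1 and TGFB2, the activator THBS1, the receptors TGFBR1 and TGFBR2, the signal transducers SMAD2, SMAD3 and SMAD4, and the inhibitors SMAD7 and SKIL. They were chosen by gene symbol as a pathway, with earlier results of these data known. All 10 were found among the 26255 symbols with values in each of 6 libraries. The libraries come from HCT116, an established human colorectal carcinoma line, with 3 libraries of cells negative for ZsGreen fluorescence and 3 of cells positive for it. The series title says that the cells were transduced with the degron of ornithine decarboxylase, a stretch of protein that leads to degradation by the proteasome without ubiquitin, and it sets them among cancer stem cell models. No other treatment, allele or time point is named for either group, and the labels do not say whether the cells were a clone, how they were separated by fluorescence, or whether the negative cells carried the reporter. The labels also name no separate cultures, so that the tests below rest on the spread between libraries, which could be technical only. The titles of the groups follow different naming patterns, and whether they were made in separate batches is not stated, so that group and batch cannot be told apart.

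TGF-beta is secreted in a latent complex and has to be released, which the matrix protein thrombospondin 1 (the product of THBS1) can do. Released ligand brings together the type II and type I receptors (TGFBR2 and TGFBR1), the type I receptor phosphorylates SMAD2 and SMAD3, and these enter the nucleus with SMAD4 to switch genes on or off. SMAD7, which blocks the receptor, and SKIL, a corepressor that binds SMADs, are themselves switched on by the pathway and limit it. In the intestinal epithelium TGF-beta restrains growth. HCT116 lacks mismatch repair and is known for frameshifts in a run of adenines in the coding sequence of TGFBR2, a change that FPKM (fragments per kilobase of transcript, relative to the total of the library, the unit of all levels below) does not show. Whether these cells made a working type II receptor, and whether the pathway signalled in either group, was not tested.

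The files hold no counts, and depth was estimated from the smallest steps of FPKM in long genes with a single transcript. The estimates were 9400000 to 9660000 fragments for the negative libraries and 12000000 to 13600000 for the positive ones. On these estimates 1 FPKM stood for about 9.40 to 9.66 and 12.0 to 13.6 fragments per kilobase of transcript. Scaling of FPKM between libraries, which is not stated, would shift them. ZsGreen-positive replicates 2 and 3 stood apart. Of the 109 and 69 genes they held at 1 to 8 fragments, 6 and 7 had a single fragment. These were 5.50% and 10.1%, against 25.8% to 33.2% in the other libraries. The step of 1 fragment is therefore poorly set in replicates 2 and 3, and their estimated depths are uncertain. They listed 11624 and 11989 genes at 0, against 8985 to 10314 in the other libraries.

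Transcripts of 8 of the 10 genes fell in the ZsGreen-positive libraries, led by THBS1, from 60.0 ± 0.263 to 1.36 ± 0.497 FPKM (mean ± SD, n = 3 libraries per group, here and below). SKIL fell 6.29-fold, SMAD7 4.56-fold and SMAD3 3.17-fold, while TGFBR1, SMAD2 and SMAD4 fell 1.796- to 1.958-fold and TGFBR2 fell 1.33-fold. TGFB1 did not pass the test and TGFB2 was too low to be tested. A gene passed with an adjusted p under 0.05 in limma's moderated test of log2(FPKM + 1). The test took in the 12213 genes that averaged at least 1 FPKM, and p-values were adjusted over all of them by Benjamini-Hochberg. Of these genes 59.4% passed, 30.0% lower and 29.4% higher in the ZsGreen-positive libraries, so that a call alone was common in this comparison. The lower genes were 50.5% of those that passed, and 37.9% when every library was rescaled to the same sum, which left 7 members lower. Of the 9 tested members 8 passed lower and 0 higher. Their median log2 difference, positive minus negative, was -0.90, against 0.0040 over all tested genes. When replicate 1 alone stood for the positive group, the log2 difference of THBS1 was -4.43. The spread in that fit came from the negative libraries only, which varied less than the positive ones. No calls are given for it. In bulk RNA, fewer cells of a type and less RNA per cell cannot be told apart.

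The 250 bases before the first RefSeq start of THBS1, SKIL and SMAD7 are shown. These 3 members had the lowest log2 differences as tested here, but SMAD3 was below SMAD7 with a pseudocount of 5 (-1.10 against -1.06) and with replicate 1 alone for the positive group (-1.66 against -1.54). SMAD3 and SMAD4 are known to bind the letters CAGAC, which were searched for this reason. Capitals mark CAGAC on either strand (GTCTG when it lies on the other strand) and, in SKIL, TGACGTCA, the motif of CREB and ATF factors. Sequences run 5′ to 3′ on the gene's strand and are from RefSeq on GRCh38.p14. The THBS1 window lies at chr15:39580829-39581078 on the plus strand, that of SMAD7 at chr18:48950966-48951215 on the minus strand, and that of SKIL at chr3:170357465-170357714 on the plus strand.
THBS1: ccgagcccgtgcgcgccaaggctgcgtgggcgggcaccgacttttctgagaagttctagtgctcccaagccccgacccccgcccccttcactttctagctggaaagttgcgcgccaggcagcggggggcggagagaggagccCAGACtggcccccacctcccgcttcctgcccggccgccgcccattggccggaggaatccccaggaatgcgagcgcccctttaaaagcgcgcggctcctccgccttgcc
SMAD7: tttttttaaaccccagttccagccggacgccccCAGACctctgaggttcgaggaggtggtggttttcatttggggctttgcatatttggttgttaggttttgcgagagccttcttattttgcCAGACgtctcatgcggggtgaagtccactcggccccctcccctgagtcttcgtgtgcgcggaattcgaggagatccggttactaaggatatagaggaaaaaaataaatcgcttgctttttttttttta
SKIL: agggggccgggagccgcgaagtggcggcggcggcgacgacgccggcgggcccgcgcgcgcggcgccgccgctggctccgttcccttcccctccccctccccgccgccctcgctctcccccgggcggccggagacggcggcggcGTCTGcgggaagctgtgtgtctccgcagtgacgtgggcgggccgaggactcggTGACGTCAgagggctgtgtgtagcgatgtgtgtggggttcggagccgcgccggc
THBS1 held 1 CAGAC, beginning 108 bases before the start. SMAD7 held 2, at 217 and 128 bases before the start, and SKIL held 1, at 107 bases, with TGACGTCA at 54 bases. All 10 members had an entry, with 25 windows in all because some have several starts, and some windows of TGFBR1, TGFBR2 and SMAD2 overlap. CAGAC lay in 11 of the 25 windows, or 44.0%, though overlapping windows of TGFBR1 shared a site. It was in windows of 6 of the 10 members, a count for which no background per gene was computed. Among all 34943 windows of this length 38.0% held CAGAC, so that the members' share of windows was near the background. The palindrome GTCTAGAC was in 0 of the 25 windows and in 0.183% of all. The AP-1 motif TGANTCA was in 1 window, of SMAD3, and in 6.59% of all, and TGACGTCA in 1, of SKIL, and in 1.63% of all. These motifs do not contain each other, and a match of letters is not evidence of binding.

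Both ligands were expressed at low levels. TGFB1, the ligand found in most tissues, stood at 1.28, 1.43 and 1.52 FPKM in ZsGreen-negative replicates 1 to 3 and at 2.00, 1.84 and 1.82 FPKM in ZsGreen-positive replicates 1 to 3. Each positive library lay above each negative one. The difference on the log2(FPKM + 1) scale, 0.26 ± 0.14 (SE), did not pass (limma, adjusted p = 0.151, 95% interval -0.07 to 0.60), and without the mean-variance trend in limma it did (adjusted p = 0.0284). In the GRCh38 annotation an exon of HNRNPUL1, which encodes an RNA-binding protein, overlaps TGFB1 on the opposite strand. HNRNPUL1 rose from 22.1 to 22.8 FPKM in the negative to 35.7 to 38.3 FPKM in the positive libraries, its part in the TGFB1 values was not tested, and whether the counting used strand is not given in the sources used here.

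TGFB2, the ligand best known from development and the eye, was at 0.372, 0.176 and 0.186 FPKM in the negative libraries. In the positive libraries it was at 0.0810 FPKM in replicate 1 and listed at 0 in replicates 2 and 3. All 3 positive values lay below the lowest negative value, but at these levels the gene rests on few fragments, and it did not reach the mean of 1 FPKM needed for the test. With no filter it passed lower (limma, log2 difference -0.27 ± 0.07, adjusted p = 0.0285). A listed 0 can also be a failed estimate. As a share of TGFB1 plus TGFB2 FPKM, TGFB2 made up 22.5%, 10.95% and 10.89% in the negative and 3.89%, 0% and 0% in the positive libraries. The groups did not overlap in this share (two-sided exact permutation test, p = 0.1, which is as low as 3 libraries against 3 can go).

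THBS1 was at 59.9, 60.3 and 59.8 FPKM in the negative and at 1.84, 0.849 and 1.41 FPKM in the positive libraries. The negative libraries were within 1 FPKM of each other, and no positive library came near them. The mean fell 44.0-fold, with a log2 difference of -4.71 ± 0.15 (95% interval -5.07 to -4.35; limma, adjusted p = 1.08e-06). Counted from the lowest difference on the log2(FPKM + 1) scale, THBS1 had rank 3 among the 12213 tested genes. That scale understates the change of low genes, and no rank is given for other pseudocounts. FSIP1, whose exons overlap THBS1 on the opposite strand in GRCh38, was at 0.174 to 1.03 FPKM in the 6 libraries, far below the negative level of THBS1 but of the order of its positive level. In ZsGreen-positive replicate 2 FSIP1 was at 1.03 and THBS1 at 0.849 FPKM, and the part of FSIP1 in the low THBS1 values, and so in the fold, was not tested.

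Both receptors fell. TGFBR1, the type I receptor kinase, was at 20.0355, 20.0364 and 20.1 FPKM in the negative and at 9.60, 12.7 and 9.78 FPKM in the positive libraries. Its groups were well apart, with ZsGreen-positive replicate 2 the highest of the positive ones (log2 difference -0.86 ± 0.11, limma, adjusted p = 0.000482). TGFBR2, the type II receptor that binds the ligand first, was at 16.1, 16.4 and 16.9 FPKM in the negative and at 13.3, 12.5 and 11.2 FPKM in the positive libraries. Its groups did not overlap either, and the log2 difference was -0.39 ± 0.09 (limma, adjusted p = 0.00593). When every library was rescaled to the same sum of FPKM the TGFBR2 difference was -0.21 ± 0.10 and did not pass (limma, adjusted p = 0.103).

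SMAD2 and SMAD3 carry the signal from the receptor. SMAD2 was at 28.7, 29.8 and 29.04 FPKM in the negative and at 14.9, 18.5 and 15.3 FPKM in the positive libraries (log2 difference -0.81 ± 0.09, limma, adjusted p = 0.000253). SMAD3, which unlike the main form of SMAD2 binds DNA directly, was at 17.4, 17.4 and 17.6 FPKM in the negative libraries. It was at 4.84, 4.62 and 7.12 FPKM in the positive libraries (log2 difference -1.52 ± 0.15, limma, adjusted p = 0.000105). Neither gene's groups overlapped, and ZsGreen-positive replicate 3 was the highest positive library for SMAD3 while replicate 2 was the highest for SMAD2. SMAD4, the partner that SMAD2 and SMAD3 share and a tumor suppressor in colorectal cancer, was at 19.5, 19.7 and 18.4 FPKM in the negative and at 9.27, 9.83 and 10.3 FPKM in the positive libraries. The 3 positive values of SMAD4 were close to each other and all below the negative ones (log2 difference -0.90 ± 0.08, limma, adjusted p = 6.30e-05).

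Both inhibitors fell. SMAD7 was at 10.4, 9.48 and 9.95 FPKM in the negative and at 2.75, 1.93 and 1.86 FPKM in the positive libraries. Every negative library of SMAD7 was above 9 FPKM and every positive one under 3 FPKM (log2 difference -1.79 ± 0.14, limma, adjusted p = 3.26e-05). SKIL was at 16.7, 18.4 and 17.5 FPKM in the negative and at 3.07, 2.18 and 3.10 FPKM in the positive libraries. The groups were again well apart (log2 difference -2.30 ± 0.13, limma, adjusted p = 7.63e-06). Libraries of the groups did not overlap in 8 of the 9 tested members that were lower and in 1, TGFB1, that was higher, while 34.5% of all tested genes were lower and 33.2% higher without overlap.

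**Figure D1:**
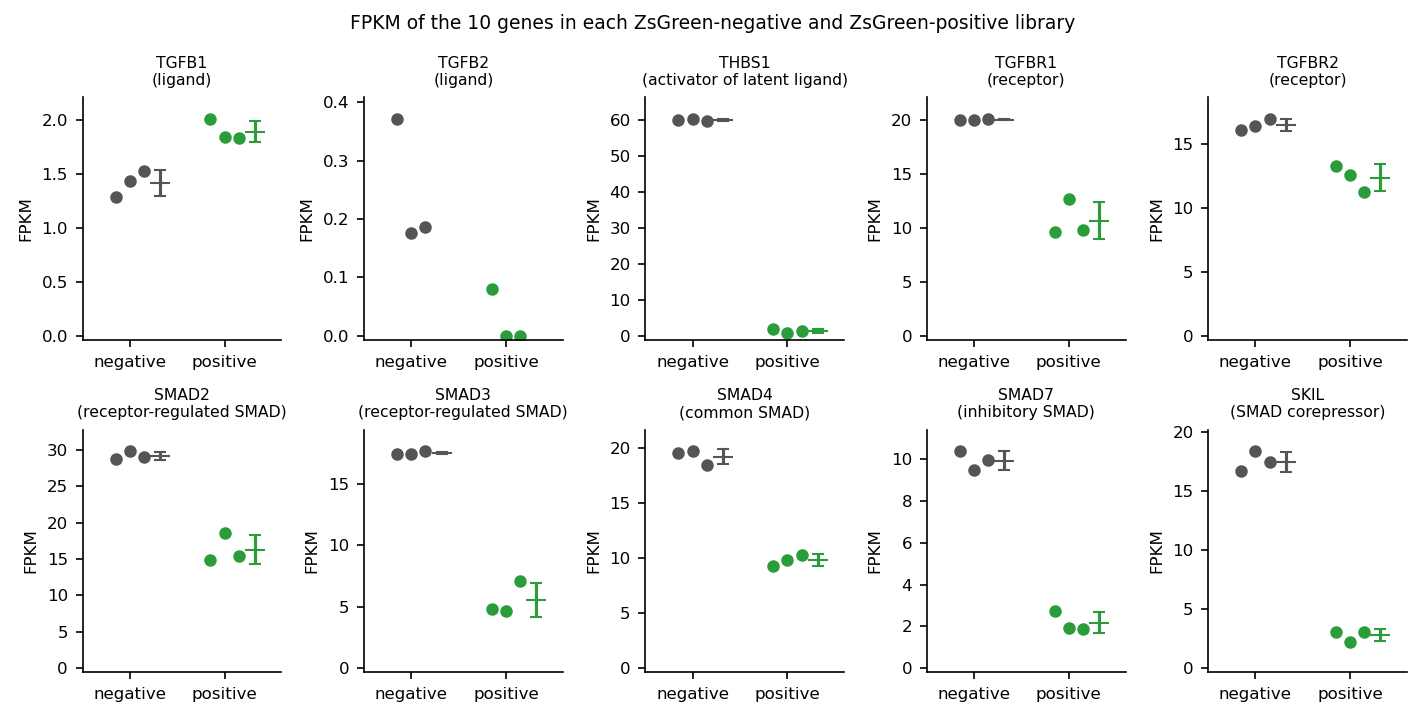
FPKM of the 10 genes (vertical axes, linear, each with its own range) in the 3 ZsGreen-negative and 3 ZsGreen-positive libraries (points), with mean and SD bars beside them except for TGFB2, which is listed at 0 in some libraries. The points of the groups do not overlap in any panel, TGFB1 is the only gene whose positive libraries are the higher ones, and THBS1 goes from about 60.0 to 1.36 FPKM.

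The order of levels, which FPKM allows because it is per length, differed between the groups. In the negative libraries THBS1 was the highest of the 10 genes, followed by SMAD2 (29.2 FPKM), TGFBR1 (20.1), SMAD4 (19.2), SKIL (17.52), SMAD3 (17.50), TGFBR2 (16.5), SMAD7 (9.94), TGFB1 (1.41) and TGFB2. The ranges of SKIL and SMAD3 overlapped, and those of all other neighbours in that order did not. In the positive libraries SMAD2 was the highest (16.2 FPKM), followed by TGFBR2 (12.4), TGFBR1 (10.7), SMAD4 (9.80), SMAD3 (5.53), SKIL (2.78), SMAD7 (2.18), TGFB1 (1.89), THBS1 (1.36) and TGFB2. Here the ranges of TGFBR2 and TGFBR1, of TGFBR1 and SMAD4, and of each neighbouring pair from SKIL down to THBS1 overlapped. THBS1 thus went from the top of the order to a level like that of TGFB1.

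Ratios of genes within a library do not depend on how libraries were scaled against each other. The ratio of SMAD3 to SMAD2 was 0.600 ± 0.0127 in the negative and 0.346 ± 0.109 in the positive libraries. SMAD7 stood to the sum of SMAD2 and SMAD3 as 0.213 ± 0.0123 in the negative and 0.102 ± 0.0325 in the positive libraries. The ratio of TGFBR2 to TGFBR1 went the other way, from 0.821 ± 0.0198 to 1.17 ± 0.201. In each of these 3 ratios the libraries of the groups did not overlap (two-sided exact permutation tests, p = 0.1 each, the lowest value this design allows, so that none of the ratios could pass).

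Other genes of the pathway were read from lists by role. Of 51 such genes 32 were tested, of which 19 passed lower, 2 passed higher and 11 did not pass, with a median log2 difference of -0.52 beside 0.0040 over all tested genes. Over all tested genes 59.4% passed, 30.0% lower and 29.4% higher, and the counts of the lists below are to be read beside these shares. Related ligands of the family were low. Of 9, only GDF11 was tested, at 0.870 ± 0.122 in the negative and 1.13 ± 0.346 FPKM in the positive libraries. It did not pass (limma, adjusted p = 0.447). TGFB3, the remaining TGF-beta isoform, was under the filter, at 1.18 ± 0.190 in the negative and 0.256 ± 0.187 FPKM in the positive libraries. All its positive libraries lay below its negative ones.

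Among genes of latency and activation 6 of 13 were tested, 3 passed lower and 1 higher (median log2 difference -0.51). ITGAV, the alpha chain of integrins that release TGF-beta, fell from 39.5 ± 1.21 to 17.6 ± 1.65 FPKM. Its partner ITGB8 fell from 7.98 ± 0.143 to 3.68 ± 0.542 FPKM. FURIN, the protease that cleaves the TGF-beta precursor, fell from 9.20 ± 0.961 to 5.83 ± 0.786 FPKM, and did not pass after rescaling to the same sum (limma, adjusted p = 0.0551). LTBP4, which tethers latent TGF-beta to the matrix, rose from 4.45 ± 0.433 to 6.67 ± 1.00 FPKM. That call was lost without ZsGreen-negative replicate 1 or 3 (limma, adjusted p = 0.0608 and 0.0603).

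Of other receptors and co-receptors 8 of 11 were tested, 6 passed lower and 0 higher (median log2 difference -0.57). Only 3 passed lower when any 1 negative library was left out, and 4 after rescaling to the same sum. ACVR2A and ACVR2B lost their calls in each of these fits. BAMBI, a pseudoreceptor without a kinase that dampens the signal, fell from 14.8 ± 0.947 to 3.91 ± 0.759 FPKM. ACVR1, a type I receptor of the BMP and activin branch, fell from 5.94 ± 0.470 to 1.61 ± 1.47 FPKM, with positive libraries as far apart as 3.11, 1.54 and 0.179 FPKM. TGFBR3, the co-receptor betaglycan, fell from 3.06 ± 0.150 to 1.29 ± 0.716 FPKM, a call lost when any 1 negative library was left out (limma, adjusted p = 0.0570 to 0.0683). ZFYVE9, which presents SMAD2 and SMAD3 to the receptor, fell from 15.02 ± 0.859 to 9.01 ± 1.93 FPKM.

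Among regulators of SMADs 17 of 18 were tested, 10 passed lower and 1 higher (median log2 difference -0.66). TGIF1, a corepressor of SMADs, fell from 215 ± 5.60 to 116 ± 8.56 FPKM. USP9X, a deubiquitinase that acts on SMAD4, fell from 26.4 ± 0.504 to 13.6 ± 0.724 FPKM, and NEDD4L, a ubiquitin ligase for activated SMAD2 and SMAD3, fell from 8.87 ± 0.562 to 4.51 ± 1.13 FPKM. USP11, another deubiquitinase, was the gene that rose, from 5.77 ± 0.532 to 12.8 ± 1.88 FPKM.

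Of 21 genes known as targets of TGF-beta 15 were tested, and 14 passed lower and 1 higher, with a median log2 difference of -1.19. Over all tested genes 30.0% passed lower and 29.4% higher. CDKN2B, which encodes the cell cycle inhibitor p15, fell from 17.3 ± 0.712 to 2.02 ± 0.704 FPKM. CTGF, a matrix-associated growth regulator, fell from 10.6 ± 0.225 to 0.992 ± 0.506 FPKM, and BHLHE40, a transcriptional repressor, fell from 105 ± 5.49 to 17.4 ± 1.18 FPKM. HMGA2, a chromatin protein, was the target that rose, from 20.8 ± 0.712 to 30.2 ± 1.81 FPKM, and is named here after its value was seen. Many of these genes respond to other signals too, and which signal moved them was not tested.

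The other thrombospondins were low throughout. THBS2, THBS4 and COMP were at 0 to 0.227 FPKM in every library, and THBS3 was at 2.43 ± 0.321 in the negative and 2.45 ± 1.13 FPKM in the positive libraries, with no call (limma, adjusted p = 0.879). Of 14 other thrombospondins and their receptors 8 were tested, of which 5 passed lower and 2 higher (median log2 difference -0.35). Among the lower ones the receptor CD47 was near the threshold (limma, adjusted p = 0.0483). Its call was lost in several alternatives, among them rescaling to the same sum and leaving out each negative library in turn. The syndecans, cell surface proteoglycans that bind thrombospondin 1, went in opposite directions. SDC4 fell from 131 ± 3.37 to 49.4 ± 6.23 FPKM and SDC1 rose from 6.28 ± 0.638 to 17.95 ± 3.64 FPKM. CALR, the chaperone calreticulin that also takes part in thrombospondin signalling, rose from 160 ± 3.64 to 396 ± 25.7 FPKM, and ITGA6, an integrin alpha chain, fell from 71.9 ± 0.541 to 35.9 ± 1.41 FPKM.

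**Figure D2:**
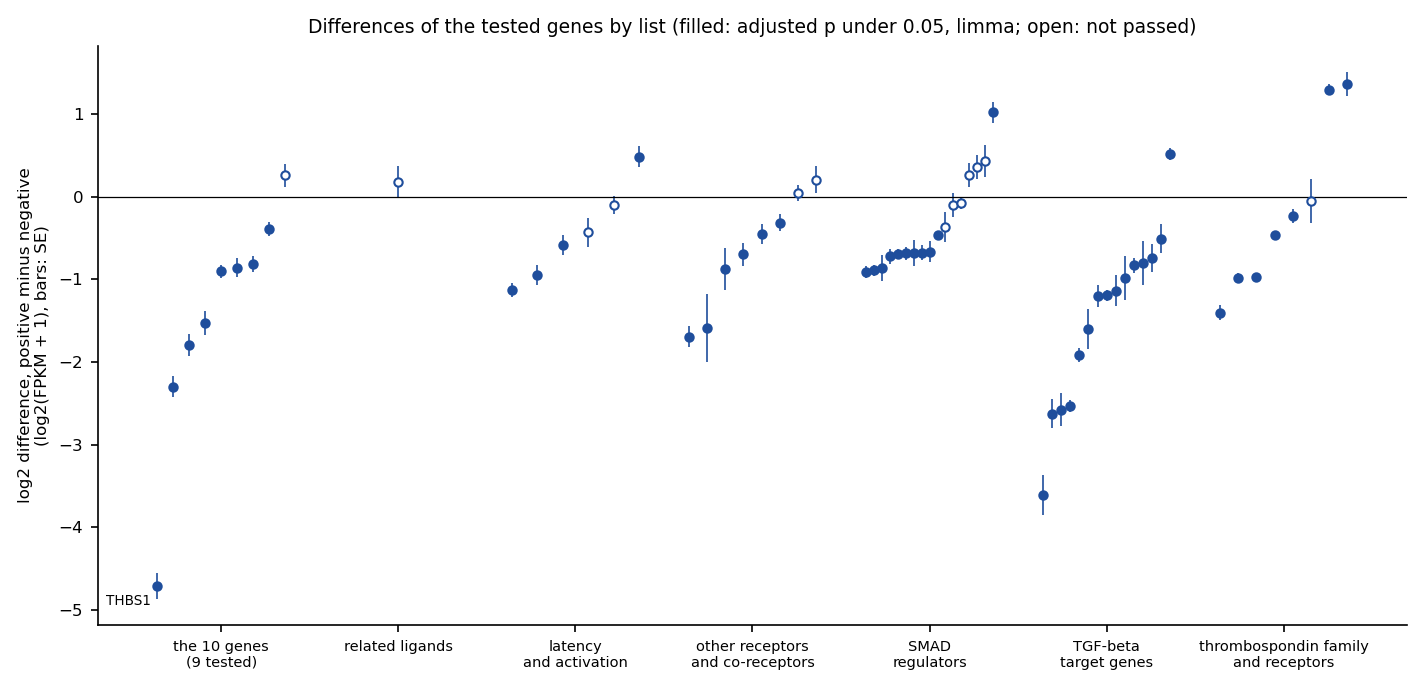
Log2 differences, ZsGreen-positive minus ZsGreen-negative on the log2(FPKM + 1) scale (vertical axis, bars are SE), of every tested gene in each list (horizontal axis), filled where the adjusted p of limma was under 0.05; THBS1 is labelled. THBS1 at -4.71 is the lowest point, and 14 of the 15 tested target genes lie below 0.

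The genes whose pattern over the 6 libraries was most like that of THBS1 were found by the Euclidean distance between log2(FPKM + 1) values, each gene centred on its own mean, over all tested genes. CXCL8, the chemokine interleukin-8, was the closest (distance 0.484), at 100.7 to 114 FPKM in the negative and 2.32 to 3.14 FPKM in the positive libraries. NR4A1, an immediate early nuclear receptor, followed at a distance of 1.01, and IFI6, an interferon-stimulated gene, at 1.03. WFDC21P (distance 1.40), a pseudogene, was at 13.8, 17.3 and 14.4 FPKM in the negative libraries, at 1.00 FPKM in ZsGreen-positive replicate 1 and listed at 0 in the other positive libraries. With 3 libraries in each of the groups, this distance is set mostly by the size of the difference between them.

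**Figure D3:**
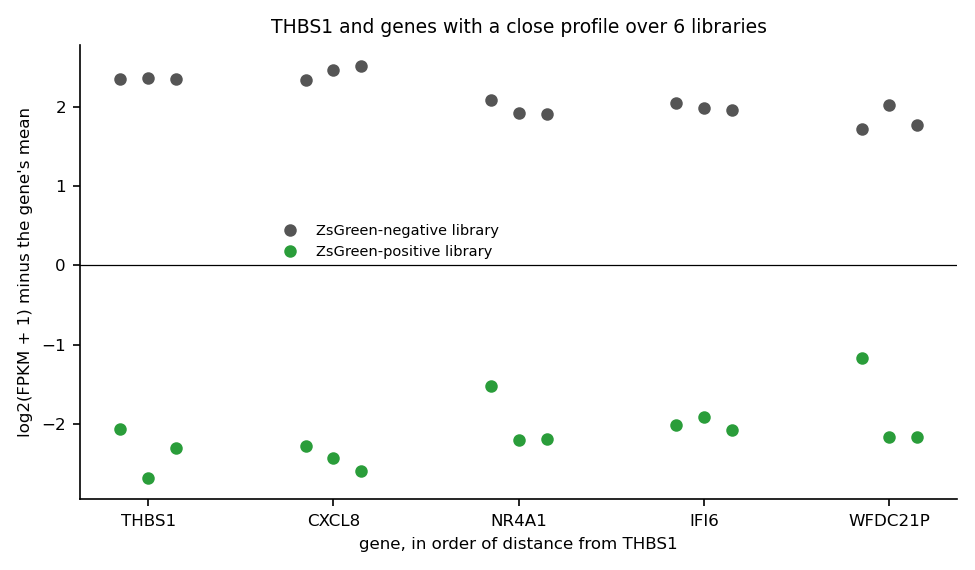
Log2(FPKM + 1) minus the gene's own mean (vertical axis) for THBS1, CXCL8, NR4A1, IFI6 and WFDC21P (horizontal axis, ordered by distance), 1 point per library. Each of these genes is high in the 3 ZsGreen-negative and low in the 3 ZsGreen-positive libraries.

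EPCAM, KRT8, KRT18, KRT19 and CDH1, markers of epithelial cells, were at 129 ± 3.86, 1518 ± 23.5, 1505 ± 20.3, 1079 ± 4.84 and 49.8 ± 0.455 FPKM in the negative libraries. In the positive ones they were at 147 ± 7.75, 1152 ± 63.1, 955 ± 90.2, 1086 ± 68.4 and 17.4 ± 1.42 FPKM, while the intestinal markers VIL1 and CDX1 were at or near 0 in every library. Fibroblasts and platelets also make THBS1. The 7 fibroblast markers summed to 2.35 to 2.50 FPKM in the negative and 0.731 to 1.19 FPKM in the positive libraries, with COL1A2, DCN, LUM and POSTN listed at 0 throughout. The 5 platelet markers summed to 0.456 to 0.747 and 0.438 to 0.978 FPKM, with PF4, PPBP and GP9 listed at 0 throughout. The 6 leukocyte markers summed to 1.66 to 2.27 and 0 to 1.53 FPKM, mostly from LYZ (1.81 ± 0.206 and 0.605 ± 0.815 FPKM). The 5 endothelial markers summed to 0.115 to 0.166 and 0.171 to 0.310 FPKM.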

How the data were processed

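The labels' protocols name TRIzol and a Qiagen miRNeasy Micro kit for isolating total RNA, and a stranded TruSeq kit that selects messenger RNA for the libraries. The authors deposited FPKM values, 1 table per library. Their software, per the submitters' processing notes, was Cuffdiff 2.2.1, TopHat2 2.1.1, SAMtools 0.1.18 and Bowtie2 2.2.8, with build hg19. Annotation, strand setting and scaling between libraries are not stated. Because FPKM is relative to a total, highly abundant RNAs can move the values of all other genes.

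Group was the only term in limma 3.58.1 (R 4.3.3; lmFit, eBayes with trend, two-sided) on log2(FPKM + 1), which understates the change of low genes. The test was also run on simulated data in which few genes changed and both groups had the same spread. That setting differs from these data, so it is no check of the calls here. Ratios, depth, motifs and figures were computed in Python 3.11.15 with NumPy 2.4.6, SciPy 1.17.1, pandas 2.3.3 and matplotlib 3.10.9. Depth is an estimate, and no interval on counts is given. Exons that overlap a member came from a GRCh38 annotation (GENCODE). Alternatives were other pseudocounts (0.1 and 5), no filter or a filter at a mean of 5 FPKM, rescaling to a sum of 1000000 or to the same median, quantile normalisation, eBayes without trend, a replicate block, leaving out each library, and replicate 1 alone for the positive group.

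The members and lists were chosen with earlier results of these data known. The rule for names took all members, up to 4 passing genes of each list with the largest absolute log2 difference (where none passed, the highest 2 by mean), the 5 genes closest to THBS1 and the 5 most abundant epithelial markers, without small RNA genes. Some genes that this rule takes are not reported here.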

Additional observations from a re-analysis of the deposited data

How the results depend on the processing

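The difference of each tested member was recomputed under 16 alternatives, where the filter kept the gene, giving 143 values, of which 0 were reversed. The side of the threshold was read only in fits with more than 1 positive library. There it changed for TGFB1 without the mean-variance trend, where the count of members passing higher was 1. It also changed for TGFBR2 after rescaling to a sum of 1000000. That rescaling moved the median of all tested genes to 0.14 on the log2 scale and the share of lower genes among those that passed from 50.5% to 37.9% (2609 lower, 4281 higher). It left 7 members, 16 pathway genes outside the members and 12 targets lower, and put 4 pathway genes outside the members higher. Leaving out single libraries gave 1 to 3 higher and 16 to 21 lower there. It left 8 members lower each time and 11 to 14 targets lower, with THBS1 from -4.85 to -4.55. With replicate 1 alone for the positive group the spread came from the negative libraries only. The side of the threshold in that fit is therefore no check. THBS1 was at -3.36 with a pseudocount of 5 and at -5.42 with 0.1. Deviations of same-numbered libraries correlated at -0.021, -0.030 and -0.021, and none correlated best with its own number. Values this near 0 cannot tell whether the replicate numbers pair the libraries. With a replicate block 8 members, 18 pathway genes outside them and 14 targets were lower, and ACVR2B and CD47 lost their calls. All 32 ratio values kept their direction. Depth limits what can be said of TGFB2, at 0.372 FPKM or less in each library.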

Other observations

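Of the 21 target genes 6 were too low to be tested, as was PMEPA1 among the regulators of SMADs, and these were described after their values were seen. TGFBI, a secreted matrix protein named for its induction by TGF-beta, had 1.07, 1.05 and 0.807 FPKM in ZsGreen-negative replicates 1 to 3. In the ZsGreen-positive ones it was listed at 0 in replicates 1 and 2 and at 0.157 FPKM in replicate 3. SNAI2, a transcription factor of epithelial-mesenchymal transition, was at 1.11, 1.48 and 1.05 FPKM in the negative libraries. In the positive ones it was at 0.0395 FPKM in replicate 1, listed at 0 in replicate 2 and at 0.106 FPKM in replicate 3. PMEPA1, a feedback inhibitor that binds SMADs, was at 1.20, 1.25 and 0.989 FPKM in the negative libraries and at 0.123, 0 and 0.392 FPKM in the positive ones. IL11, a cytokine, was at 0.618 to 0.691 FPKM in the negative libraries and at 0.556, 0.181 and 0 FPKM in the positive ones. The groups overlapped for ZEB1, a repressor of epithelial genes, at 0.929 to 1.11 FPKM in the negative and 0.171 to 1.25 FPKM in the positive libraries. They also overlapped for the collagen genes COL4A1 and COL4A2, which were at 0 to 0.103 FPKM in every library.

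Spread between libraries differed between the groups. Among the tested members the median coefficient of variation of FPKM was 2.63% among negative and 16.4% among positive libraries, and over all tested genes it was 5.48% and 15.1%. TGFBR1 varied least among members in the negative libraries (0.232%), and THBS1 varied most among tested members in the positive ones (36.4%).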
